A study of Mus musculus with 2 samples.

Results

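The interferon receptors and the first signalling proteins behind them were followed through the brain cells of aged mice in 2 droplet single-cell RNA libraries. The 9 genes were chosen by symbol among the 32285 genes listed in the deposited matrices, and all 9 were found. They are the type I receptor chains Ifnar1 and Ifnar2, the interferon gamma receptor chains Ifngr1 and Ifngr2, the kinases Jak1 and Tyk2, and the transcription factors Stat2, Irf9 and Irf7. One library came from CD200R1 knockout mice (KO) and the other from wild-type mice (WT), both untreated, aged 18 months and on the C57BL/6J background. CD200R1 is an inhibitory receptor of myeloid cells. Per the labels' protocols, brains were perfused with PBS and dissociated, and CD11b-positive cells were pulled out with magnetic particles before 10x Chromium 3′ library preparation. The labels do not say how many mice stand behind each library, so each group is 1 library. No difference between the groups therefore has a replicate check, no p-value is given, and every interval below is a 95% interval that covers counting error only.

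Type I interferons bind a receptor made of the IFNAR1 and IFNAR2 chains, to which the kinases TYK2 and JAK1 are attached. The kinases phosphorylate STAT2 and another STAT protein, which join IRF9 and bind the interferon-stimulated response element in the promoters of antiviral genes. Interferon gamma, made mainly by T and NK cells, uses the separate IFNGR1 and IFNGR2 chains, and its signal reaches DNA at gamma-activated sites. IRF7 is the factor that drives most interferon alpha genes, and Stat2, Irf9 and Irf7 are themselves known interferon-induced genes, whereas the receptor chains and kinases are made without interferon. Microglia, the resident macrophages of the brain, are known to respond to both kinds of interferon.

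The promoter windows of the 3 transcription factor genes and of both type I receptor chains are shown because the first group passed the fold used below in most classes and the second in none. They are RefSeq windows on GRCm38.p6, from 250 bases before to 50 bases after a transcript start, on the gene's strand, and all 9 genes had one. Capitals mark an exact match on either strand to the core letters of the interferon-stimulated response element, GAAANNGAA, or of the gamma-activated site, TTCNNNGAA. The Stat2 window lies at chr10:128270248-128270547 (plus strand), the first of 2 Irf9 windows at chr14:55603735-55604034 (plus) and the Irf7 window at chr7:141266375-141266674 (minus). The Ifnar1 window lies at chr16:91484965-91485264 (plus) and the Ifnar2 window at chr16:91372533-91372832 (plus).
Stat2: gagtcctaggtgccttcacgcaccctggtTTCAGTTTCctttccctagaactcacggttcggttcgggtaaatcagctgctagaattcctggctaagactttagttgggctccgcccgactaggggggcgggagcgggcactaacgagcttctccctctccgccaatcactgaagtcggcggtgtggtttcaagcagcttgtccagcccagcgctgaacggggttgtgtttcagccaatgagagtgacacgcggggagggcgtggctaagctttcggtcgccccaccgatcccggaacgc
Irf9: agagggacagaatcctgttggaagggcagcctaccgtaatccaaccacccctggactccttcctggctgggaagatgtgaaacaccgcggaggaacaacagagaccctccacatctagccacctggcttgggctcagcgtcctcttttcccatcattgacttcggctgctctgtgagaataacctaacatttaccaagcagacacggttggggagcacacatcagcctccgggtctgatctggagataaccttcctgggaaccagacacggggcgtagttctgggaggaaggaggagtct
Irf7: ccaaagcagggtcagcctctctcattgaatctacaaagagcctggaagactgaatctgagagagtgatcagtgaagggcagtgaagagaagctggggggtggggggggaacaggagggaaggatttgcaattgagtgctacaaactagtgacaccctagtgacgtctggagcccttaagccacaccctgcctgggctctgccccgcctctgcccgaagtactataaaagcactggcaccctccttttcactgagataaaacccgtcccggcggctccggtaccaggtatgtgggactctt
Ifnar1: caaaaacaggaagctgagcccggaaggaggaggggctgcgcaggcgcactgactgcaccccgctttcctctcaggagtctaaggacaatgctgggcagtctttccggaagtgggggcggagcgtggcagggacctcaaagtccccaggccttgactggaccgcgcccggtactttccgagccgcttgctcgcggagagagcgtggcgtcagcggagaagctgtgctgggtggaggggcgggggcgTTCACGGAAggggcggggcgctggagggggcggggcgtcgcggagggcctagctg
Ifnar2: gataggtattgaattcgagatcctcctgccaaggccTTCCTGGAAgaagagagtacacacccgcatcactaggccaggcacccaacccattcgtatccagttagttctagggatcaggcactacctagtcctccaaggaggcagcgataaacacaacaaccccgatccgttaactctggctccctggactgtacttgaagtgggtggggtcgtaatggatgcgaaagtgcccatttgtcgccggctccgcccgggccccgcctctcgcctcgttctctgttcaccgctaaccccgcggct
The Stat2 window held the only response-element match among the 9 genes, TTCAGTTTC on the printed strand, which begins 221 bases before the start. Gamma-activated-site matches stood in the Ifnar1 window at 5 bases before the start (TTCACGGAA) and in the Ifnar2 window at 214 bases before it (TTCCTGGAA). Neither core was found in the windows of Irf7, Irf9, Ifngr1, Ifngr2, Jak1 or Tyk2. The response-element core occurred in 8.56% and the gamma-activated-site core in 8.30% of all 32851 windows of this length. For scale, 11 of 16 genes with a window in a fixed list of type I interferon-induced genes held the response-element core, and so did 8 of 8 in a list of interferon gamma-induced genes. The gamma-activated-site core stood in 4 of the 16 and in 4 of the 8. A match is a description of letters, not a binding site.

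In the GENCODE annotation of GRCm38, 3 of the 4 receptor genes lie side by side on chromosome 16. Ifnar2 (91372783 to 91405589), the shared interleukin 10 receptor chain gene Il10rb (91406164 to 91425834), Ifnar1 (91485238 to 91507441) and Ifngr2 (91547072 to 91565623) are all on the plus strand. This cluster is 46.6 to 46.8 Mb from Cd200r1, the targeted gene, on the same chromosome. Ifngr1 lies apart, on chromosome 10 (19591949 to 19610229, plus strand). Jak1 is on chromosome 4 (101152367 to 101265282, minus), Tyk2 on chromosome 9 (21104068 to 21131243, minus) and Stat2 on chromosome 10 (128270559 to 128292849, plus). Irf9 is on chromosome 14 (55603571 to 55610030, plus) and Irf7 on chromosome 7 (141262706 to 141266481, minus). Several overlap an annotated neighbour. Irf9 overlaps Rnf31 on the same strand, where reads could be shared, and Irf7 overlaps Phrf1 on the opposite strand.

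The matrices held 131196245 UMIs in 19159 barcodes labelled KO and 127429919 UMIs in 18228 barcodes labelled WT, and the kept cells numbered 16935 and 16357, with medians of 4167 and 4033 UMIs. Cells were clustered without the 9 genes and without the interferon-induced lists used below, and clusters were named "X-like" from marker genes, which gave 12 classes that reached 50 cells in both libraries. Clusters left unnamed held 32.3% of KO and 37.4% of WT cells and were not compared. Some met fewer than 3 markers of any list. Others met a list, but their leading genes or markers of a further class went against the name. Among these, a cluster of 1012 KO and 1255 WT cells met all 12 endothelial markers. A cluster of 204 and 108 cells met all 12 ependymal markers, and another of 594 and 338 cells met 4 CNS-associated macrophage markers. Such cells are missing from the classes. Cd200r1 was read at 12.0 CPM (UMIs of a gene per 1000000 UMIs) in KO and 12.7 CPM in WT cells. The labels do not say which exons were deleted, so 3′ reads do not check the genotype, and KO and WT stand for the libraries so labelled. The libraries shared 81 kept barcodes, of which 19 had the same class in both.

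The classes were not clean. The summed CPM of 12 microglial markers, as a percentage of the level in microglia-like cells of the same library, was 63.1% in KO and 54.9% in WT CNS-associated macrophage-like cells (macrophage-like from here on) and 57.4% and 58.7% in neutrophil-like cells. In monocyte-like cells it was 33.9% and 33.1%, and in endothelial-like cells 7.07% and 7.21%. It differed between the libraries in T or NK cell-like cells (22.0% in KO, 12.5% in WT), astrocyte-like cells (29.9% and 20.5%) and ependymal-like cells (29.7% and 41.3%). Marker RNA of other cell types differed too. Choroid plexus markers summed to 5347 CPM in KO and 2830.3 CPM in WT endothelial-like cells, and to 4512 and 2199.8 CPM in macrophage-like cells. Endothelial markers summed to 418 CPM in KO and 960.2 CPM in WT macrophage-like cells. Levels are given below as CPM of the summed UMIs of a class, so that a cell type's own RNA and RNA from other cells are added together.

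The type I receptor chains were highest in endothelial-like cells, the cells that line brain vessels. Ifnar1, the low-affinity chain that TYK2 sits on, had 159 CPM (153 to 166) in KO and 140.0 CPM (135 to 146) in WT endothelial-like cells. Macrophage-like cells came next with 60.6 CPM in KO and 65.5 CPM in WT, and choroid plexus-like cells last with 17.8 and 12.9 CPM. The endothelial level was the highest by a wide margin, and of the 11 neighbouring pairs in the order of the classes, 7 overlapped in their library values. Microglia-like cells sat in the lower part of the order, at 39.3 CPM in KO and 38.2 CPM in WT, beside astrocyte-like cells (40.7 and 38.3 CPM). T or NK cell-like cells had 57.9 CPM in KO and 41.1 CPM in WT, fibroblast-like cells 55.2 and 47.3 CPM, and monocyte-like cells 53.6 and 45.3 CPM. B cell-like cells (34.7 CPM in KO, 39.2 CPM in WT), neutrophil-like cells (33.4 and 44.6 CPM), mural-like cells (27.8 and 22.5 CPM) and ependymal-like cells (21.1 and 40.9 CPM) made up the rest.

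Ifnar2, the chain that binds interferon with high affinity, was spread more evenly over the classes. It had 315 CPM in KO and 292 CPM in WT endothelial-like cells, 275 and 236 CPM in macrophage-like cells, and 256 and 246 CPM in microglia-like cells. Monocyte-like cells (231 CPM in KO, 234 CPM in WT) and neutrophil-like cells (208 and 231 CPM) followed. These myeloid classes lay between 208 and 275 CPM in KO and between 231 and 246 CPM in WT. Fibroblast-like cells had 165 CPM in KO and 182 CPM in WT, astrocyte-like cells 152 and 122 CPM, T or NK cell-like cells 141 and 135 CPM, choroid plexus-like cells 131 CPM in both libraries, and ependymal-like cells 123 and 125 CPM. The lowest levels were those of mural-like cells (105 CPM in KO, 111 CPM in WT) and B cell-like cells (78.1 and 97.4 CPM). The highest class exceeded the lowest 4.03-fold in KO and 3.0-fold in WT, against 8.93-fold and 10.9-fold for Ifnar1.

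Ifngr1, the ligand-binding chain of the interferon gamma receptor, was highest in T or NK cell-like cells, at 511 CPM in KO and 535 CPM in WT. Microglia-like cells followed with 389 CPM (383 to 395) in KO and 447 CPM (441 to 454) in WT, then monocyte-like cells with 314 and 419.8 CPM and macrophage-like cells with 311 and 337 CPM. All leukocyte classes but B cell-like cells (71.6 CPM in KO, 87.9 CPM in WT) thus lay above the vessel and stromal classes. Neutrophil-like cells had 231 CPM in KO and 310 CPM in WT. Of the other classes, ependymal-like cells had 152 CPM in KO and 226 CPM in WT, and astrocyte-like cells 142 and 138 CPM. Mural-like cells had 81.3 CPM in KO and 98.1 CPM in WT, fibroblast-like cells 78.4 and 108 CPM, endothelial-like cells 74.9 and 79.5 CPM, and choroid plexus-like cells 61.9 and 81.4 CPM.

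Ifngr2, the chain that completes the gamma receptor, ordered the classes differently. Microglia-like cells were highest, at 179 CPM in KO and 181 CPM in WT, with neutrophil-like (132 and 150.4 CPM), macrophage-like (133 and 109.7 CPM) and monocyte-like cells (115 and 113 CPM) behind them. T or NK cell-like cells, the highest for Ifngr1, were low for Ifngr2, at 45.0 CPM in KO and 22.1 CPM in WT. Ependymal-like cells had 67.9 CPM in KO and 81.8 CPM in WT, astrocyte-like cells 60.5 and 48.2 CPM, mural-like cells 43.0 and 45.6 CPM, and fibroblast-like cells 42.6 and 34.6 CPM. Endothelial-like (27.0 CPM in KO, 24.0 CPM in WT) and choroid plexus-like cells (25.7 and 28.2 CPM) were at the lower end. Microglial marker RNA was at 7.07% of the microglial level in KO endothelial-like cells and Ifngr2 at 15.1%, and the part of microglial RNA in that level was not tested.

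The kinases followed the leukocytes. Jak1, which serves both receptors, had 461 CPM in KO and 499 CPM in WT T or NK cell-like cells, 262 and 284 CPM in microglia-like cells, and 46.0 and 57.3 CPM in choroid plexus-like cells, the lowest class. Macrophage-like cells had 257 CPM of Jak1 in KO and 234 CPM in WT, neutrophil-like cells 222 and 307 CPM, monocyte-like cells 197 and 239 CPM, and B cell-like cells 178 and 295 CPM. Mural-like (141 CPM in KO, 143 CPM in WT), astrocyte-like (141 and 130.2 CPM) and fibroblast-like cells (137 and 144 CPM) lay close together, above endothelial-like (109 and 95.3 CPM) and ependymal-like cells (87.8 and 115 CPM). Tyk2, the kinase on IFNAR1, was read at low counts, between 5.48 and 30.8 CPM in KO and between 6.23 and 28.8 CPM in WT classes. Microglia-like (30.8 CPM in KO, 28.8 CPM in WT), macrophage-like (30.8 and 27.4 CPM) and monocyte-like cells (30.3 and 28.0 CPM) were at the upper end and could not be ordered among themselves. T or NK cell-like cells had 26.5 CPM of Tyk2 in KO and 19.0 CPM in WT, neutrophil-like cells 25 and 27.3 CPM, B cell-like cells 19.5 and 13.8 CPM, endothelial-like cells 16.8 and 16.2 CPM, and astrocyte-like cells 16.3 and 9.48 CPM. Mural-like cells had 11.5 CPM in KO and 13 CPM in WT, ependymal-like cells 8.20 and 16.4 CPM, fibroblast-like cells 6.70 and 15.2 CPM, and choroid plexus-like cells 5.48 and 6.23 CPM.

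**Figure D1:**
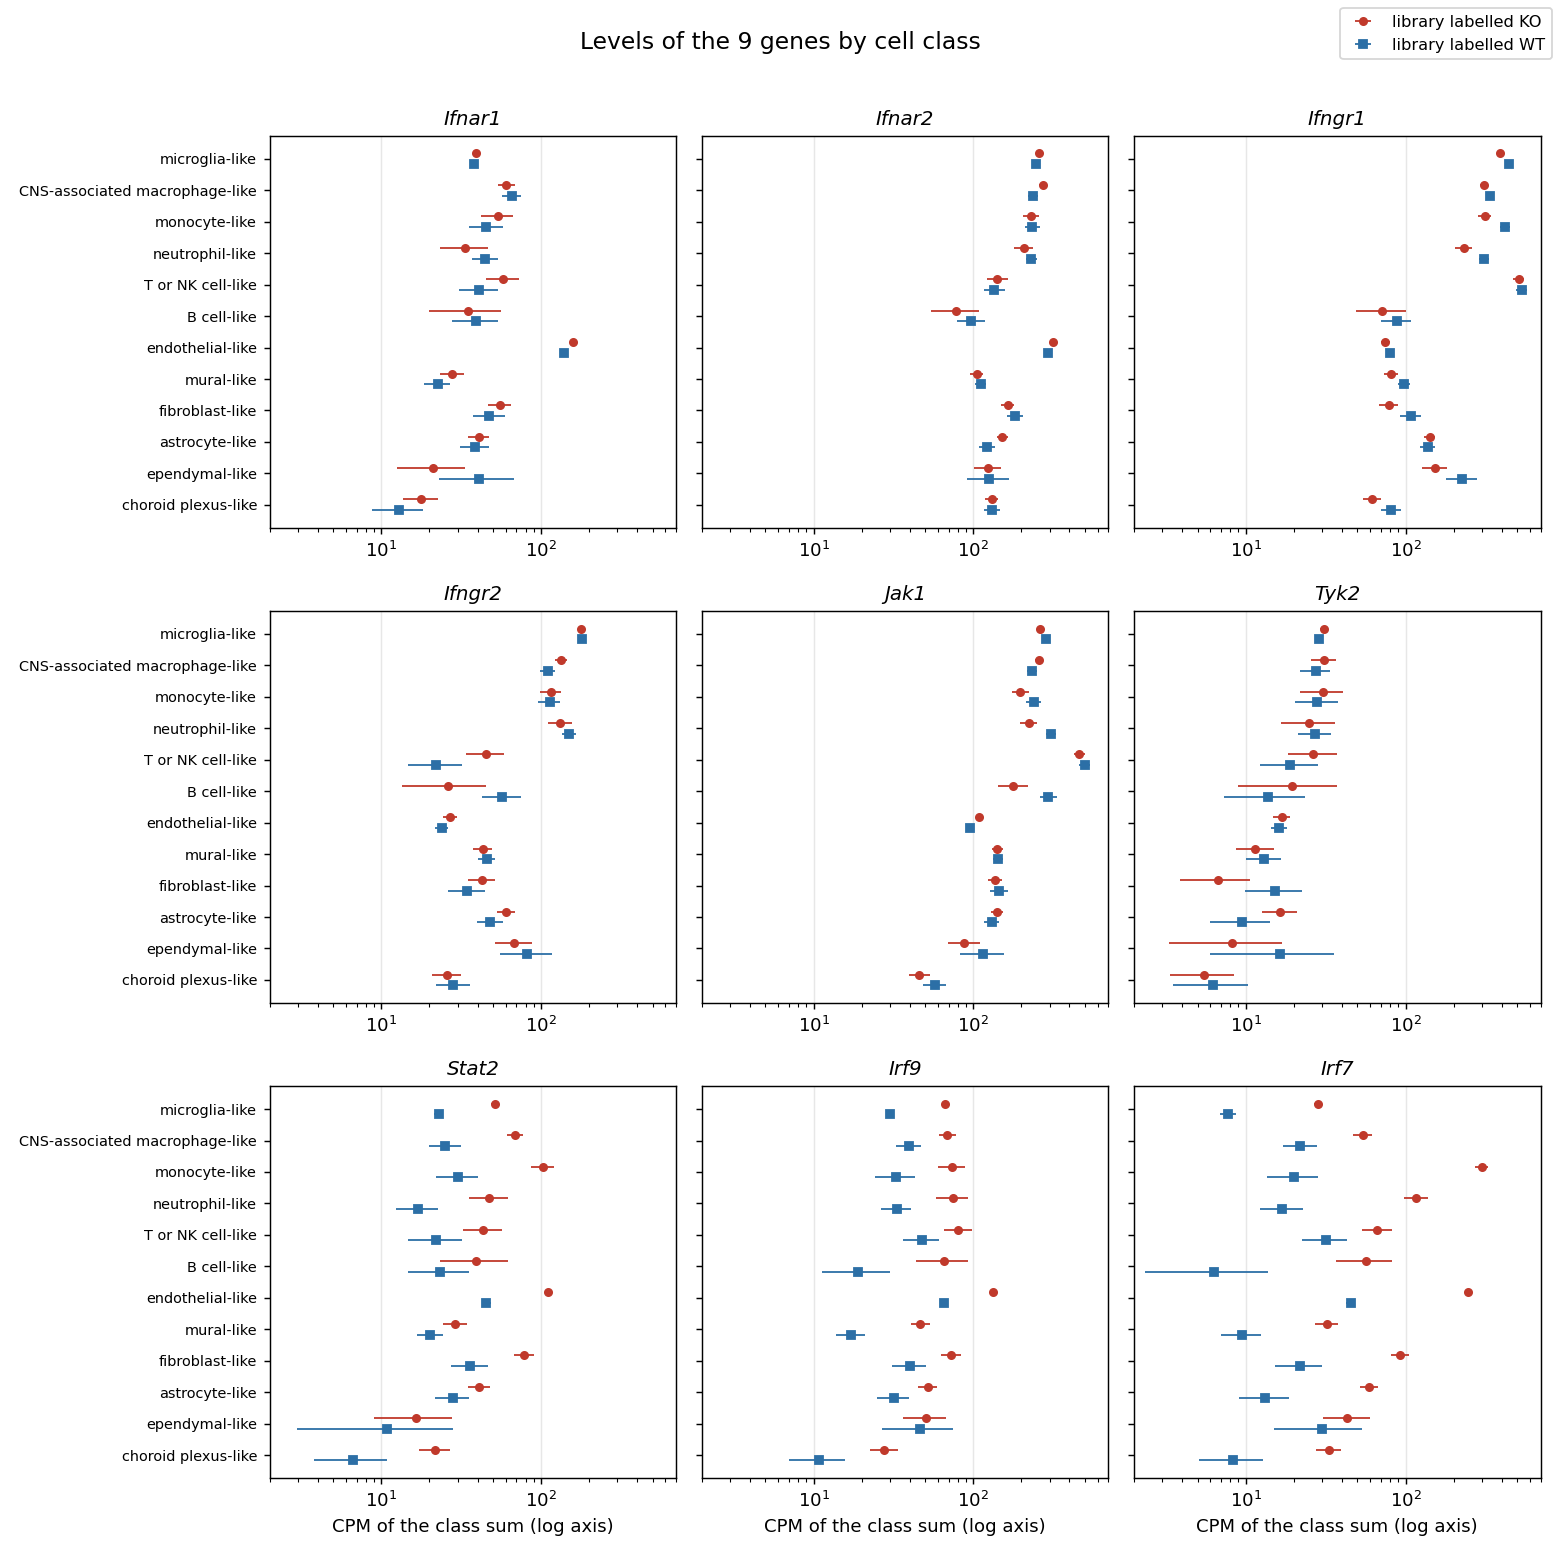
Levels of the 9 genes in 12 cell classes, as CPM of the class sum on a log axis with exact Poisson 95% intervals; KO points (circles) stand above WT points (squares). The receptor and kinase points of both libraries nearly coincide in most classes, while Stat2, Irf9 and Irf7 points are shifted to the right in KO.

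Set against WT, the KO library had more RNA of the 3 transcription factor genes in nearly every class and about as much of the receptor chains and kinases. A gene was counted as higher or lower when the ratio of CPM, each plus 10 CPM, was at least 1.5-fold and both libraries together held at least 50 UMIs. Irf7 was higher in 10 of the 10 classes where it was measured at that depth, Irf9 in 9 of 11 and Stat2 in 8 of 10. Their log2 ratio was above 0 in 12 of 12 classes each, with medians of 1.41, 0.89 and 0.92. The other 6 genes passed the fold in 3 of 67 measured pairs of gene and class: Ifngr2 was higher in T or NK cell-like cells and lower in B cell-like cells, and Jak1 was lower in B cell-like cells. Where cells of a type were fewer and where each cell held less RNA of a gene cannot be told apart in CPM of mixed classes.

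The share of all measured genes past the same fold differed much between classes and sets the scale for these counts. In microglia-like cells 0.502% of genes were higher and 0.191% lower in KO, against 3 of 9 genes of the pathway higher. In endothelial-like cells 0.725% were higher and 0.303% lower, and 3 of 9 genes were higher. Macrophage-like cells had 0.871% higher and 1.79% lower genes, choroid plexus-like cells 0.831% higher and 108 of 8660 genes lower, and fibroblast-like cells 2.13% and 2.35%, each with 3 of the pathway's genes higher. Mural-like cells had 1.12% higher and 0.377% lower, with 2 of the genes higher, and astrocyte-like cells 3.53% and 2.18%, with 1 higher.

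Classes of few cells had wider backgrounds. Monocyte-like cells (138 in KO, 122 in WT) had 3.72% of genes higher and 2.97% lower, and neutrophil-like cells (87 and 177) 3.45% and 10.6%, with 3 of the 9 genes higher in each. T or NK cell-like cells (240 and 194) had 7.74% higher and 1.60% lower, with 4 of the 9 genes higher. B cell-like cells (75 and 143) had 5.46% higher and 13.1% lower, so the 2 lower genes there stand among many. Ependymal-like cells, a cluster of low UMI counts (median 903), had 5.98% and 10.4%. Of the 9 genes 5 were measured there, and none of these passed the fold. A deeper cluster with ependymal markers (median 18592 UMIs) was among those left unnamed. An alternative scaled each class by the median plain ratio of its measured genes. That ratio departed most from equality in neutrophil-like cells (log2 of -0.15) and choroid plexus-like cells (-0.12).

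**Figure D2:**
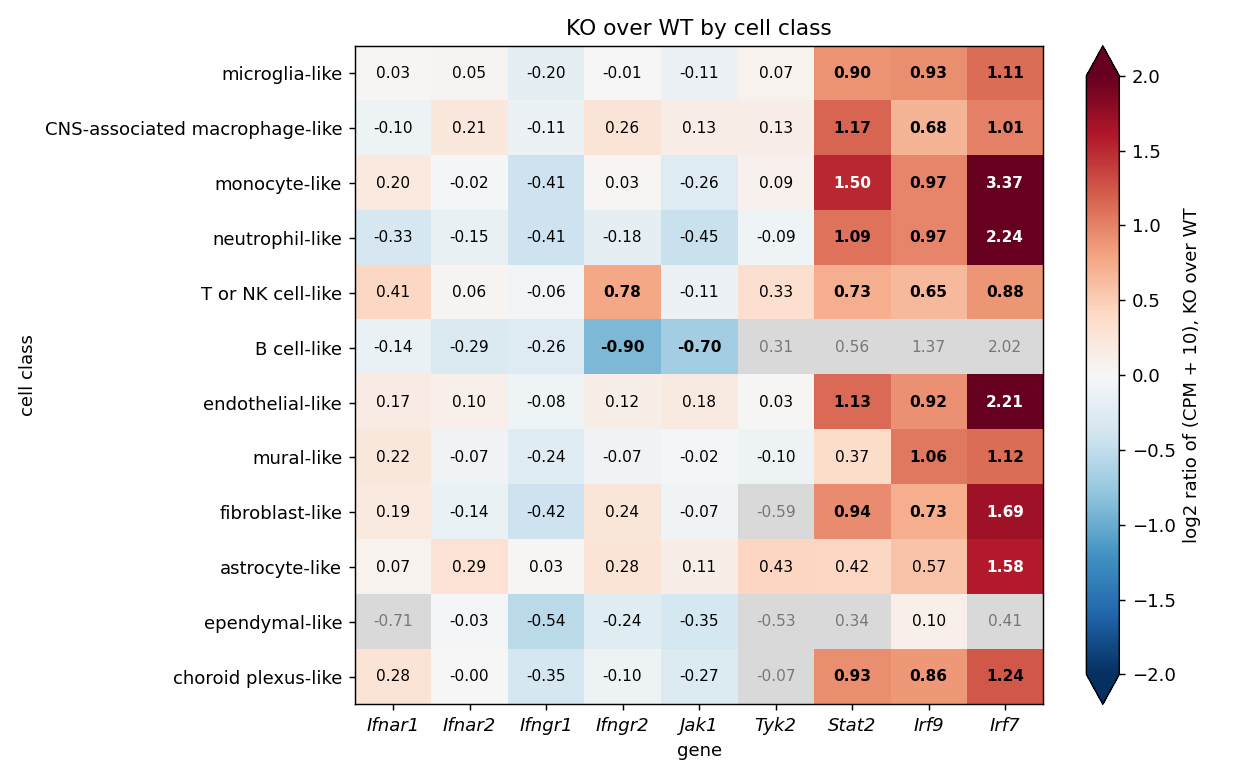
Log2 ratio of (CPM + 10), KO over WT, for the 9 genes (columns) in 12 cell classes (rows). Bold values pass the 1.5-fold rule and grey cells had under 50 UMIs in both libraries together; the 3 columns on the right hold 27 of the 28 bold values above 0.

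Ifnar1 differed little between the libraries. Its log2 ratio lay between -0.71 and 0.41 and the interval of the plain ratio excluded 1 in 1 class, endothelial-like cells, at 1.14 (1.08 to 1.20). Ifnar2 lay between -0.29 and 0.29, with a microglial ratio of 1.04 (1.01 to 1.07) and an astrocyte ratio of 1.24 (1.08 to 1.43). Neither chain passed the fold in any class where it was measured, 11 classes for Ifnar1 and 12 for Ifnar2. Il10rb, which lies between them on chromosome 16, had 117 CPM in KO and 122 CPM in WT microglia-like cells.

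Ifngr1 was below the WT level in 11 of 12 classes without passing the fold in any. In microglia-like cells, where its 16180 KO and 17682 WT UMIs make counting error small, 389 CPM in KO stood against 447 CPM in WT, a ratio of 0.870 (0.851 to 0.889). Of all genes measured in that class, 95.4% had a higher log2 ratio. Monocyte-like cells had a ratio of 0.749 (0.662 to 0.847), neutrophil-like cells 0.745 (0.643 to 0.859), fibroblast-like cells 0.726 (0.590 to 0.894) and ependymal-like cells 0.672 (0.507 to 0.897). The interval lay below 1 in 7 classes. Among cells with microglial markers under 0.5% of their UMIs, the log2 ratio of Ifngr1 was -0.14 in neutrophil-like cells (-0.41 over the whole class). It was -0.05 in mural-like (-0.24) and 0.01 in T or NK cell-like cells (-0.06). Monocyte-like cells had -0.75 (-0.41), fibroblast-like -0.47 (-0.42), astrocyte-like -0.11 (0.03) and ependymal-like cells -0.44 (-0.54). Choroid plexus-like cells had -0.20 (-0.35), B cell-like -0.14 (-0.26), macrophage-like -0.08 (-0.11) and endothelial-like cells -0.05 (-0.08). The part of microglial RNA was not tested. With 1 library a group, a shift of this size has no replicate spread to be set against.

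Ifngr2 passed the fold in opposite directions in the lymphoid classes and in neither direction elsewhere. T or NK cell-like cells had 56 UMIs in KO and 28 in WT, or 45.0 against 22.1 CPM, a ratio of 2.03 (1.27 to 3.33). In B cell-like cells 12 UMIs in KO and 54 in WT gave 26.0 against 57.2 CPM, a ratio of 0.456 (0.222 to 0.862). Microglial markers, whose class has the most Ifngr2, were at 22.0% of their microglial level in KO and 12.5% in WT T or NK cell-like cells. Among T or NK cell-like cells with microglial markers under 0.5% of their UMIs (223 in KO, 181 in WT), Ifngr2 was at 18.9 CPM in KO and 17.3 CPM in WT, a log2 ratio of 0.08. Among the B cell-like cells below the same limit (69 in KO, 135 in WT) it was at 28.0 CPM in KO and 52.3 CPM in WT, a log2 ratio of -0.71. The part of microglial RNA in these ratios was not tested further.

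Jak1 was lower in KO B cell-like cells, at 82 UMIs or 178 CPM against 279 UMIs or 295 CPM in WT, a ratio of 0.603 (0.465 to 0.773). Its ratio was 0.725 (0.625 to 0.839) over neutrophil-like, 0.827 (0.705 to 0.970) over monocyte-like and 0.922 (0.898 to 0.947) over microglia-like cells. Over endothelial-like cells it was 1.14 (1.07 to 1.22). The interval lay below 1 in 4 classes and above 1 in 1. Tyk2 was measured in 8 classes and passed the fold in none, with 30.8 CPM in KO and 28.8 CPM in WT microglia-like cells, a ratio of 1.07 (0.988 to 1.16).

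Stat2, whose protein joins IRF9, had its highest level in endothelial-like cells of both libraries, with 111 CPM in KO and 45.4 CPM in WT, a ratio of 2.46 (2.26 to 2.67). Microglia-like cells had 51.1 CPM in KO and 22.8 CPM in WT (2.24, 2.07 to 2.42) and macrophage-like cells 68.9 and 25.2 CPM (2.74, 2.12 to 3.56). In monocyte-like cells 103 CPM in KO stood against 30 CPM in WT, the largest log2 ratio of this gene at 1.5. In all of these classes the intervals of the libraries did not overlap. Fibroblast-like cells had 78.0 and 35.8 CPM, neutrophil-like cells 47.3 and 16.9 CPM, T or NK cell-like cells 43.4 and 22.1 CPM, and choroid plexus-like cells 21.6 and 6.65 CPM. Astrocyte-like cells (40.9 CPM in KO, 28.0 CPM in WT) and mural-like cells (29.1 and 20.2 CPM) stayed within the fold, with log2 ratios of 0.42 and 0.37. B cell-like (39.1 and 23.3 CPM) and ependymal-like cells (16.4 and 10.9 CPM) had under 50 UMIs in both libraries together.

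Irf9, the DNA-binding partner of STAT2, showed similar ratios in most classes. It had 133 CPM in KO and 65.4 CPM in WT endothelial-like cells (ratio 2.03, 1.89 to 2.18) and 66.3 and 30 CPM in microglia-like cells (2.21, 2.06 to 2.37). Macrophage-like cells had 68.9 CPM in KO and 39.4 CPM in WT, monocyte-like cells 73.3 and 32.7 CPM, neutrophil-like cells 74.2 and 33.1 CPM, and T or NK cell-like cells 80.4 and 47.4 CPM. The ratio in these 6 classes lay between 1.70 and 2.25. Mural-like cells stood at 46.7 CPM in KO and 17.2 CPM in WT, a ratio of 2.72 (2.12 to 3.51), fibroblast-like cells at 72.9 and 40.0 CPM and choroid plexus-like cells at 27.7 and 10.8 CPM. Astrocyte-like cells (52.0 CPM in KO, 31.7 CPM in WT) and ependymal-like cells (50.4 and 46.4 CPM) did not pass the fold. B cell-like cells had 30 UMIs in KO and 18 in WT, too few to be counted.

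Irf7 had the largest log2 ratio of the 9 genes in each class where it was measured at 50 UMIs, except macrophage-like cells, where that of Stat2 was larger. Monocyte-like cells had 426 UMIs or 300.3 CPM (272 to 330.2) in KO against 30 UMIs or 20.0 CPM (13.5 to 28.5) in WT, a ratio of 15 (10.4 to 22.5). Of the genes measured in that class, 0.0134% had a larger log2 ratio, which is 1 gene. Endothelial-like cells had 246 CPM in KO and 45.4 CPM in WT (5.42, 5.03 to 5.85), neutrophil-like cells 117 and 16.9 CPM (6.90, 4.86 to 9.96), fibroblast-like cells 92.6 and 21.8 CPM, and astrocyte-like cells 59.3 and 13.2 CPM. Microglia-like cells had the lowest level of all 12 classes in KO, 28.3 CPM (26.8 to 30), and the next to lowest in WT, 7.79 CPM (6.94 to 8.71), yet a ratio of 3.64 (3.21 to 4.14). Macrophage-like cells had 54.1 CPM in KO and 21.9 CPM in WT (2.47, 1.87 to 3.29), T or NK cell-like cells 66.7 and 31.6 CPM, mural-like cells 32.2 and 9.45 CPM, and choroid plexus-like cells 33.1 and 8.31 CPM. B cell-like cells (26 UMIs in KO, 6 in WT) and ependymal-like cells (37 and 11) were too shallow to be counted.

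The monocyte-like class also differed in its own markers. The 12 monocyte markers summed to 6289 CPM in KO and 3892 CPM in WT. Ly6c2, the marker of classical monocytes, had 1617 CPM in KO and 355 CPM in WT, and Chil3 922 and 439 CPM. Markers of the patrolling subset ran the other way or were closer, with Ace at 136 CPM in KO and 193 CPM in WT, Adgre4 at 278 and 433 CPM and Treml4 at 97.3 and 101 CPM. The rest of the list was split. Plac8 (2156 CPM in KO, 923 CPM in WT), Ccr2 (164 and 101 CPM) and F10 (55.0 and 34.0 CPM) were higher in KO. Fn1 (268 CPM in KO, 502 CPM in WT), Nr4a1 (431 and 598 CPM), Spn (125 and 165 CPM) and Vcan (38.1 and 48.6 CPM) were lower. Whether the mix of monocyte subsets has a part in the Irf7 ratio of this class was not tested. Own markers also differed in other classes. In neutrophil-like cells Camp was at 5121 CPM in KO and 2726 CPM in WT, and Csf3r at 385 and 786 CPM. In B cell-like cells Ighm was at 15519.7 and 9787 CPM, and Ebf1 at 1430.2 and 2534 CPM. The part of such shifts in the ratios of these classes was not tested either. Within the 2 microglia-like clusters the Irf7 ratio was 3.57 (3.09 to 4.15) and 3.87 (3.01 to 5.03), and that of Stat2 2.20 and 2.33.

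Shares of cells with a UMI ran the same way at equal depth. Among microglia-like cells thinned to 1000 UMIs, 113 of 4074 KO cells (2.77%, 2.29 to 3.33) and 30 of 3459 WT cells (0.867%, 0.586 to 1.24) held an Irf7 UMI. At full depth the shares were 20.7% of KO and 6.20% of WT cells. For Stat2 the thinned shares were 4.93% in KO and 1.99% in WT, and for Irf9 6.26% and 3.32%. Ifngr1 was found in 31.7% (30.2 to 33.1) of KO and 35.4% (33.8 to 37.1) of WT cells, and Ifnar1 in 3.46% and 3.56%. No class is known to lack these genes, so no background share of free RNA could be set beside them.

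**Figure D3:**
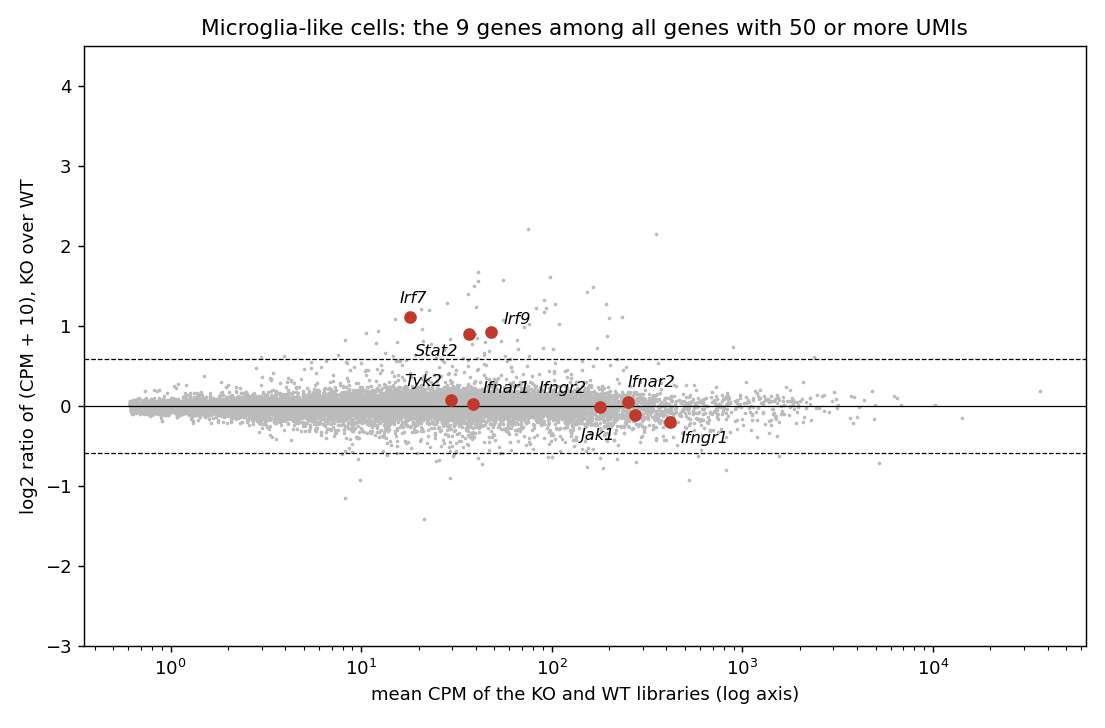
Log2 ratio of (CPM + 10), KO over WT, against mean CPM (log axis) for the 14134 genes with at least 50 UMIs in microglia-like cells (grey points), with the 9 genes in red and dashed lines at 1.5-fold. Irf7 (1.11), Irf9 (0.93) and Stat2 (0.90) lie above the upper line, and the receptor and kinase genes lie within the cloud, Ifngr1 at its lower side (-0.20).

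Microglia-like cells were then ordered within each library by their UMIs of 21 type I interferon-induced genes, a list that holds none of the 9. After thinning to 1000 UMIs, 34.4% of KO and 5.58% of WT cells held 3 or more such UMIs, and 17.1% of KO and 59.9% of WT cells held none. Irf7 was higher in the upper bin of both libraries: it was at 40.7 CPM in KO cells with 3 or more UMIs and 10.0 CPM in KO cells with none, a ratio of 4.05 (1.85 to 10.5). In WT the same bins held 25.9 and 5.31 CPM, a ratio of 4.88 (1.33 to 15.2). These levels rest on 57 and 7 Irf7 UMIs in KO and 5 and 11 in WT. Thinned to 2000 UMIs, a depth at which 70.4% of KO and 14.4% of WT cells fell in the upper bin, Irf7 was at 32.8 and 10.3 CPM in KO, a ratio of 3.19 (1.23 to 11.9). In WT it was at 36.8 and 2.24 CPM at that depth, on 35 and 6 UMIs, a ratio of 16.5 (6.86 to 47.9).

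Stat2 and Irf9 were not higher in the upper bin in KO. Stat2 had 55.0 CPM in KO cells with 3 or more UMIs of the list and 58.8 CPM in KO cells with none, a ratio of 0.935 (0.632 to 1.40). Irf9 had 64.3 and 78.9 CPM in the same cells, a ratio of 0.815 (0.576 to 1.16). In WT the ratios were 2.45 (0.983 to 5.38) for Stat2 and 1.40 (0.614 to 2.81) for Irf9, on 8 and 9 UMIs in the upper bin. KO cells without any UMI of the list held 58.8 CPM of Stat2 and 78.9 CPM of Irf9, against 16.9 and 33.3 CPM in the corresponding WT cells. At 2000 UMIs the WT ratio of Stat2 was 2.27 (1.5 to 3.42) and that of Irf9 1.48 (1.00 to 2.16), the latter on 44 and 84 UMIs. In KO at that depth Stat2 had 1.3 (0.747 to 2.27) and Irf9 0.838 (0.584 to 1.24). At 1000 UMIs the receptor and kinase genes had ratios between 0.766 and 1.27 over both libraries, with intervals that all included 1. At 2000 UMIs the intervals of 2 of these lay below 1: Jak1 in KO was at 247 CPM in the upper bin and 326 CPM in cells with none (0.760, 0.633 to 0.918), and Ifngr1 in WT at 411 and 495 CPM (0.830, 0.739 to 0.93). At this depth a cell without a UMI of the list may still express it.

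**Figure D4:**
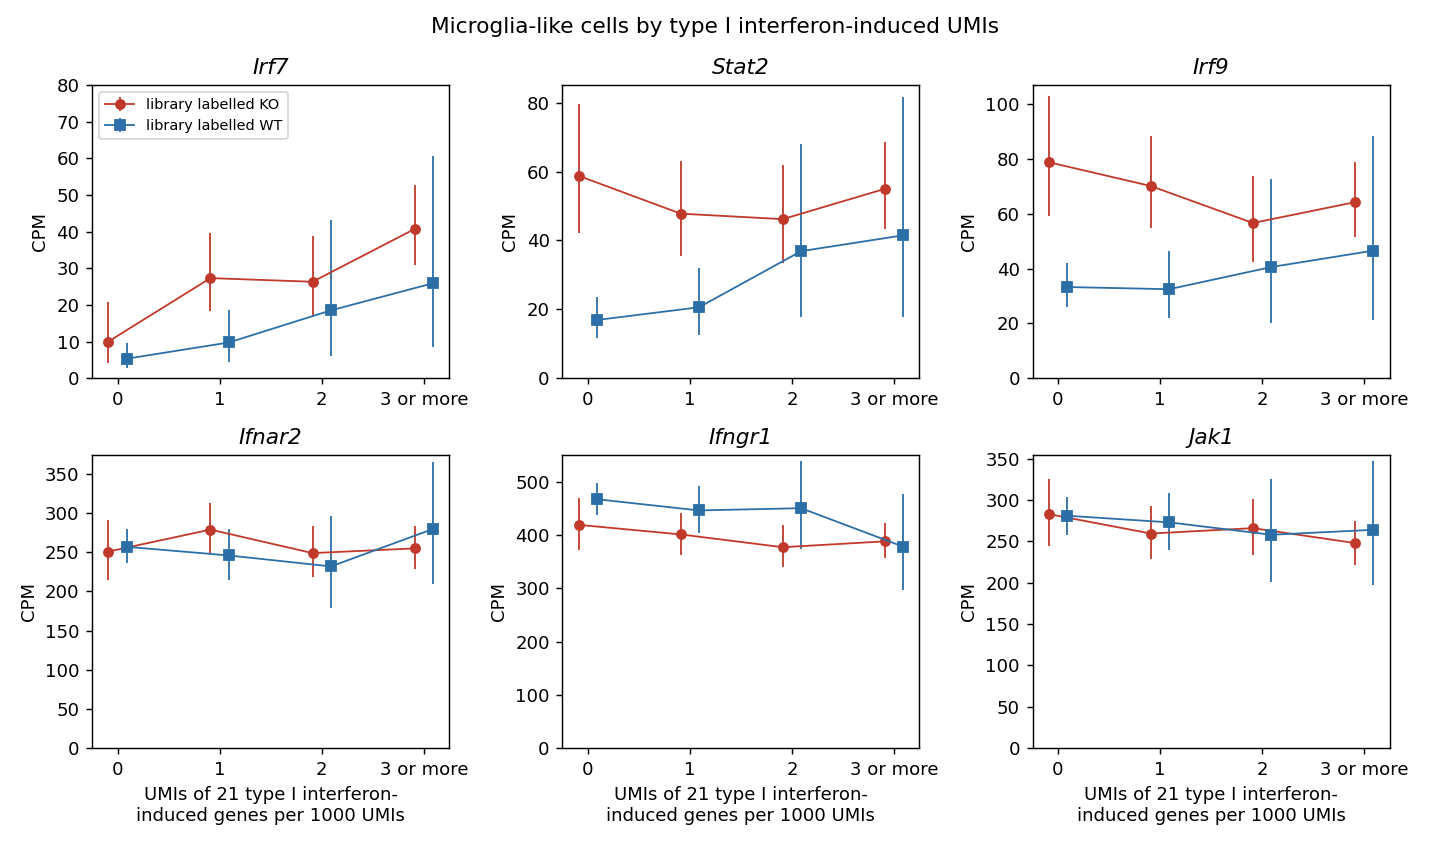
CPM of 6 of the genes in microglia-like cells thinned to 1000 UMIs, by the number of UMIs of 21 type I interferon-induced genes per cell, with exact Poisson 95% intervals (KO circles, WT squares). Irf7 is higher in cells with 3 or more such UMIs than in cells with none in both libraries, KO levels of Stat2 lie between 46.2 and 58.8 CPM and of Irf9 between 56.7 and 78.9 CPM, and the intervals of Ifnar2, Ifngr1 and Jak1 overlap between the lowest and the highest bin of a library at this depth.

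Since microglial marker RNA was present in every class, the ratios were also taken over the cells whose 12 microglial markers held under 0.5% of their UMIs. This kept 188 KO and 178 WT macrophage-like cells, with the markers at 17.7% and 17.8% of the microglial level. Irf7 was then at 104 CPM in KO and 27.4 CPM in WT macrophage-like cells, a log2 ratio of 1.61 against 1.01 over the whole class, and Stat2 at 76.7 and 28.3 CPM. Irf7 in monocyte-like cells was at 358 and 22.5 CPM, in endothelial-like cells at 248 and 45.4 CPM, and in neutrophil-like cells at 183 and 31.5 CPM. The log2 ratios of Irf7 in the last 3 classes, 3.50, 2.22 and 2.22, were close to those over all their cells. The exception was the ependymal-like class, at 44.2 CPM in 362 KO cells and 56.0 CPM in 102 WT cells. Microglia-like cells themselves held little Irf7 (28.3 CPM in KO, 7.79 CPM in WT), so leaving out microglial RNA is a weak check of the Irf7 ratios. RNA of endothelial-like cells, which held more Irf7, was not filtered out. The 12 endothelial markers summed to 4081 CPM in KO and 3156 CPM in WT astrocyte-like cells, against 27564 and 27342 CPM in endothelial-like cells. Their part in the Irf7 ratios was not tested.

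The ligands were close to absent. Of 21 interferon genes, those for the alpha, beta, epsilon, kappa, zeta, lambda and gamma forms, only Ifnb1 and Ifng exceeded 5 UMIs in all kept cells of a library. Ifnb1, interferon beta, had 67 UMIs in 8 KO microglia-like cells and 5 UMIs in 2 WT microglia-like cells. Of the 67, 52 came from 1 cell, so the ratio of 12.7 (5.20 to 40.5) in CPM does not describe the class. Ifng, interferon gamma, was held by T or NK cell-like cells, with 118 UMIs in 59 of 240 KO cells and 111 UMIs in 60 of 194 WT cells, or 94.8 against 87.7 CPM, a ratio of 1.08 (0.827 to 1.41).

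Among other genes of the pathway, the negative regulator Usp18, a protease that blocks the type I receptor at IFNAR2, was the one gene past the fold outside the interferon-induced lists in microglia-like, macrophage-like and endothelial-like cells. It had 35.5 CPM in KO and 9.71 CPM in WT microglia-like cells (3.65, 3.26 to 4.10), 53.6 and 26.4 CPM in macrophage-like cells and 132 and 51.2 CPM in endothelial-like cells. That is 1 of 14 measured negative regulators in microglia-like cells, where the list had a median log2 ratio of 0.04. Socs3, a feedback inhibitor of cytokine receptors, stood at 138 CPM in KO and 134 CPM in WT microglia-like cells, and Ptpn2, a phosphatase of JAKs, at 50.3 and 40.8 CPM. Of 6 other JAK and STAT genes and 7 other IRF genes, none passed the fold in these classes, and their medians in microglia-like cells were -0.02 and 0.03. Irf2, a repressor at interferon response elements, was at 262 CPM in KO and 307 CPM in WT microglia-like cells (0.853, 0.832 to 0.876), and Irf8, a lineage factor of microglia, at 368 and 349.7 CPM.

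The genes downstream of the receptors were counted in a type I and a gamma list. In microglia-like cells 16 of 21 type I interferon-induced genes were higher in KO and none lower, with a median log2 ratio of 1.11, and 3 of 11 measured interferon gamma-induced genes, with a median of 0.32. In endothelial-like cells the counts were 18 of 21 with a median of 1.20 and 8 of 10 with a median of 0.81. Macrophage-like cells had 15 of 21 and 1 of 10, with medians of 0.76 and 0.02. The median over all measured genes was 0.004 in microglia-like, 0.014 in endothelial-like and 0.001 in macrophage-like cells. Earlier results of these data had already shown interferon-induced genes higher in KO, so these counts give no independent evidence of the direction.

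Across the 24 points of class and library, the genes most like each member were found by Pearson's r of log2(CPM + 10) among 6471 genes, a description over points that share libraries and depth. Irf7 was most like Xaf1 (r = 0.902), Usp18 (0.897) and Isg15 (0.896), all interferon-induced genes. Irf9 was most like Igtp (0.907), Xaf1 (0.900) and Usp18 (0.889), and Stat2 like Rnf213 (0.901), Irgm1 (0.881) and Ifit2 (0.858). Ifngr1, Ifngr2 and Ifnar2 had other partners. Ifngr1 had Lcp2 (0.959), Fyb (0.949) and Arl4c (0.937), Ifngr2 had Cd300c2 (0.962), Gcnt1 (0.961) and Gusb (0.955), and Ifnar2 had Arap3 (0.944), Chn2 (0.937) and Rgl2 (0.926). Ifnar1 was most like Ccny (0.899), Gbp7 (0.881) and Slc3a2 (0.873), of which Gbp7 is on the interferon gamma-induced list. Its r was 0.66 with Stat2 and 0.67 with Irf9, beside 0.65 with Ifnar2. Jak1 was most like Mbnl1 (0.939), Clk1 (0.937) and Wipf1 (0.933). Tyk2 was read too sparsely for this comparison.

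The overlapping neighbours were read in the same classes. Phrf1, which faces Irf7 on the opposite strand, had 39.4 CPM in KO and 39.1 CPM in WT microglia-like cells, 42.2 and 38.5 CPM in endothelial-like cells and 40.2 and 38.7 CPM in monocyte-like cells. In T or NK cell-like cells Phrf1 was at 46.6 CPM in KO and 28.4 CPM in WT, a log2 ratio of 0.56 beside 0.88 for Irf7 in that class. Rnf31, which overlaps Irf9 on the same strand, had 16.4 CPM in KO and 9.23 CPM in WT microglia-like cells, a log2 ratio of 0.45, and 19.7 and 13.2 CPM in endothelial-like cells, a log2 ratio of 0.35. Macrophage-like cells had 0.41 beside 0.68 for Irf9, and neutrophil-like cells 0.70 beside 0.97. In mural-like cells the log2 ratio of Rnf31 was -0.01 beside 1.06 for Irf9, and in astrocyte-like cells -0.01 beside 0.57. How the authors' counting divided reads between Irf9 and Rnf31 is not given in the sources used here, so their ratios cannot be fully separated.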

How the data were processed

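Single-cell RNA was measured in 2 libraries, 1 labelled KO and 1 labelled WT. Deposited were unnormalised UMI counts for each gene and barcode, written by Cell Ranger 7.0.1 per the file headers. The submitters' processing notes list STAR, Seurat 3.1.1 and the builds GRCm38 and mm10 without settings. The counting of reads in introns and of overlapping genes is not given in the sources used here. Cells needed 300 genes, 500 UMIs and at most 10% mitochondrial UMIs. Scrublet then removed 724 KO (4.10%) and 244 WT cells (1.47%), at expected rates of 15.3% and 14.6%, so doublets remain. Both libraries were clustered together with scanpy 1.11.5 on 2000 variable genes, 30 principal components, 15 neighbours and Leiden resolution 1. A cluster was named from at least 3 markers detected in 25% of its cells at a log2 fold of 1, unless its leading genes or a further class went against the name. UMIs were summed per class and library, and library size was the class total. Ratios have exact conditional binomial intervals, levels exact Poisson and shares exact Clopper-Pearson intervals, all at 95%. Log2 ratios use a pseudocount of 10 CPM, which understates the change of genes at low levels. The functions were tested on simulated data. Every one of the 9 genes is named in every class. Of each pathway list, the genes past the fold in microglia-like, macrophage-like or endothelial-like cells and up to 2 at either end are named, and a few others were named after their values were seen. Mx1 of the type I list has no row in the matrices. The 9 genes and the gene lists were chosen with earlier results of these data known. Alternatives covered filters, scaling, pseudocount, fold, depth and the way classes were made. The choice of cells low in microglial markers was made after seeing the data.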

Additional observations from a re-analysis of the deposited data

Results flagged for a closer look

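Ifngr2 stood out because it passed the fold in opposite directions in both lymphoid classes: the log2 ratio was 0.78 in T or NK cell-like cells and -0.90 in B cell-like cells, a gap of 1.67. The difference between the classes was not tested. It rests on 56 KO and 28 WT UMIs in the first class and on 12 KO and 54 WT UMIs in the other, and in T or NK cell-like cells low in microglial markers the log2 ratio was 0.08, and in B cell-like cells low in them -0.71.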

How the results depend on the processing

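Over 1485 values recomputed under alternatives, 1372 stayed within their counting interval or within 1.5 times the count, 112 moved and 1 reversed. By default Irf7, Irf9 and Stat2 were higher in 10, 9 and 8 classes, the 4 receptor genes were higher in 1 and lower in 1 of 47 measured pairs, and the 2 kinase genes were lower in 1 and higher in 0 of 20. With a pseudocount of 50 CPM the counts higher were 5 for Irf7, 1 for Irf9 and 3 for Stat2, and 0 receptor pairs were higher or lower. With a pseudocount of 1 CPM 1 kinase pair was higher. At a fold of 5 to 4, 2 receptor pairs were higher and 7 lower, and 2 kinase pairs higher and 3 lower. At 2-fold Irf9 was higher in 1 class and Stat2 in 4, with 0 receptor pairs either way and 0 kinase pairs lower. Without a minimum of UMIs 2 receptor and 2 kinase pairs were lower. With means scaled per cell 0 receptor pairs were higher and 6 lower, and 1 kinase pair was higher. In cells thinned to 1000 UMIs each factor gene was measured in 3 classes, where Irf7 was higher in 3, Irf9 in 3 and Stat2 in 2, while 0 receptor pairs passed either way and 0 kinase pairs were lower. A stricter filter on cells gave 2 higher receptor pairs, and keeping doublet calls 2 lower ones. In cells low in microglial markers Stat2 was higher in 5 of 8 measured classes, with 0 receptor pairs higher and 2 lower. Classes built from the markers of each cell numbered 10, with Irf7 higher in 6 of 7 measured, Stat2 in 3 of 8, 0 receptor pairs higher and 1 kinase pair higher, and Ifngr2 in T or NK cell-like cells reversed to -0.09. The log2 ratio of Irf7 fell below 0 only in the ependymal-like class low in microglial markers (-0.28) and in 1 class built from the markers of each cell (-0.17). Thinning and stricter filters leave fewer measured pairs, and the cause of the other changes was not tested. No paired analysis was possible because each group is 1 library. Depth limits Tyk2 and the B cell-like and ependymal-like classes most, where counts were often under 50 UMIs.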
